A study of Schizosaccharomyces pombe with 2 samples.

Results

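The rDNA-proximal ends of chromosome III of the fission yeast Schizosaccharomyces pombe are the DNA just inside the arrays of ribosomal RNA genes that cap this chromosome. They were taken as the chromosome III tiles named for positions 25000 to 114999 on the left and 2338000 to 2437999 on the right, with the rDNA itself left out. This gave 295 tiles on the left and 330 on the right, 625 of the 41240 chromosome tiles measured. No measured value entered this choice. Distances below are counted from the rDNA side of each end.

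The measurement was BrdU immunoprecipitation on a 2-colour tiling array, with 1 array for the wild-type strain and 1 for the sap1-1 mutant. The strain called wild-type has the genotype cdc10-v50 and the mutant has cdc10-v50 sap1-1, so both carry the cell-cycle allele used for the block. Both are in the 972h background and carry Pnmt1-TK and Padh1-hENT, the modules that let yeast phosphorylate and import thymidine analogues. Cultures were blocked at 35 °C for 4 h, then returned to 26 °C together with 10 mM hydroxyurea and 200 µM BrdU, and were stopped by addition of sodium azide (0.1%). The value per tile is the log2 ratio of immunoprecipitated DNA (Cy5) to whole-cell extract DNA, the input (Cy3), centred on the median of each array. With 1 array per strain there is no replicate error, no test between strains was possible, and a difference between strains cannot be told apart from a difference between these 2 cultures, immunoprecipitations or arrays. An SD or SE below is over tiles, and neighbouring tiles share DNA fragments, so it describes scatter along the chromosome only.

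Hydroxyurea blocks the enzyme that makes deoxynucleotides, so forks stall near where they began and BrdU piles up around origins that fired early. Fission yeast origins have no fixed sequence; they lie mostly in AT-rich DNA between genes, where the AT-hook protein Orc4 of the origin recognition complex binds. Chromosome III carries rDNA repeats next to its telomeres, where chromosomes I and II carry subtelomeric heterochromatin. Sap1 is an essential DNA-binding protein that binds the rDNA, where it stalls forks, and LTRs.

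The highest smoothed BrdU values of the left end lay at new22 and SPCC1884.01, and those of the right end lay between pcs60 and vms1. The stretches between these genes are shown because the highest smoothed value of each end lay there in both strains. Without tiles of low input this did not hold for sap1-1, where rnc1 (2.73) on the left and spx2 (2.10) on the right stood higher than these zones (2.27 and 1.89). They are the reference sequence of NCBI RefSeq (ASM294v3, plus strand), the 300 bp richest in A and T within each gap between the genes as annotated there, and runs of 5 or more A or T (AAAAA or TTTTT, counted on the plus strand, which covers both strands) are in capitals.
new22 to SPCC1884.01, chrIII:36672-36971: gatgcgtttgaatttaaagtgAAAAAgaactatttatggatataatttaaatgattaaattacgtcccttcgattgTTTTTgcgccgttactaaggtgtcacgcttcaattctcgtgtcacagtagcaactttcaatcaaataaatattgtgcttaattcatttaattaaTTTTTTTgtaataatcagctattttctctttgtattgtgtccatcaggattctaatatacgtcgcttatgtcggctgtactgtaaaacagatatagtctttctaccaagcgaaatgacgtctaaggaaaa
pcs60 to vms1, chrIII:2381996-2382295: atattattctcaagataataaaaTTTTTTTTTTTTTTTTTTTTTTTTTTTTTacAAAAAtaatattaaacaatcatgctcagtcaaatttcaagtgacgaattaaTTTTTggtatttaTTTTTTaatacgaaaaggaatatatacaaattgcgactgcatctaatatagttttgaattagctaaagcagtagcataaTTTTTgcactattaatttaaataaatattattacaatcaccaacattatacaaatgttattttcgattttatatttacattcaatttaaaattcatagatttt
The left stretch comes from a short gap of 314 bp, has 68.3% A+T and holds 3 runs. Of the 2317 gaps of the genome long enough for such a window, 8.29% had a lower A+T content in their own richest 300 bp. The right stretch comes from a gap of 1989 bp, has 81.7% A+T and holds 5 runs, and 97.7% of gaps had a lower A+T content. Long gaps offer more windows to choose from than short ones. Over all gaps the median A+T content was 73.0% and 96.2% held a run, against 72.7% and 97.7% of the 44 gaps in these ends. These 2 zones thus held a stretch low in A+T for a gap and one near the top of the range. By the offsets given below, the left stretch lies in tiles 36600 and 36900. The right one lies almost wholly in tile 2382900, the sap1-1 summit, and not in the wild-type summit tile 2382300. Tile 2382900 is of low input (-5.78 in wild-type and -5.52 in sap1-1). The sources used here do not name the genome build that the tile names follow. Matching the GC content of ASM294v3 to the input of these tiles at a series of offsets placed the left end at 0 bp from that assembly and the right end at -900 bp (correlation over tiles 0.54 and 0.56, and a median of -0.04 and -0.03 at other offsets). Gene names rest on these offsets and are good to about 1 tile of 300 bp, and tile positions on the right are not ASM294v3 coordinates.

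Compared with the ends of chromosomes I and II, the ends of chromosome III carried little BrdU in wild-type. The median log2 ratio was 0.12 on the left (SD over tiles 1.08) and -0.01 on the right (1.07), against 1.76 (0.75) over the 1234 tiles in the outer 100 kb of chromosomes I and II. The rest of chromosome III, with 7246 tiles, had a median of 0.07, so in wild-type these ends resembled chromosome III as a whole in their median. Of the 625 tiles, 135 (21.6%) were at 1 or above in wild-type, a share close to the background of 24.4% of all chromosome tiles. In sap1-1 the count was again 135 (21.6%), with 22.8% of all tiles at 1 or above. At the chromosome I and II ends, 81.8% of tiles were at 1 or above in wild-type and 42.3% in sap1-1.

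In sap1-1 the median was 0.30 on the left (SD 1.22) and 0.27 on the right (1.24), while that of the ends of chromosomes I and II was 0.80 (1.09). The median difference, sap1-1 minus wild-type, was 0.12 on the left and 0.15 on the right, against -0.94 at the chromosome I and II ends and -0.03 over the rest of chromosome III. Counted against the ends of chromosomes I and II, which is free of where the arrays are centred, the difference was 1.06 on the left and 1.09 on the right. The sign of the first pair does depend on the centring: with each array centred on the mode of its ratios, the differences were -0.43 and -0.40. Of the 625 tiles, 61 (9.76%) were lower in sap1-1 by at least 1, fewer than the 17.1% of all tiles, and 72 (11.5%) were higher by at least 1, against 10.3% of all tiles. Lower by any amount were 262 tiles (41.9%), against 55.8% of all tiles.

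**Figure D1:**
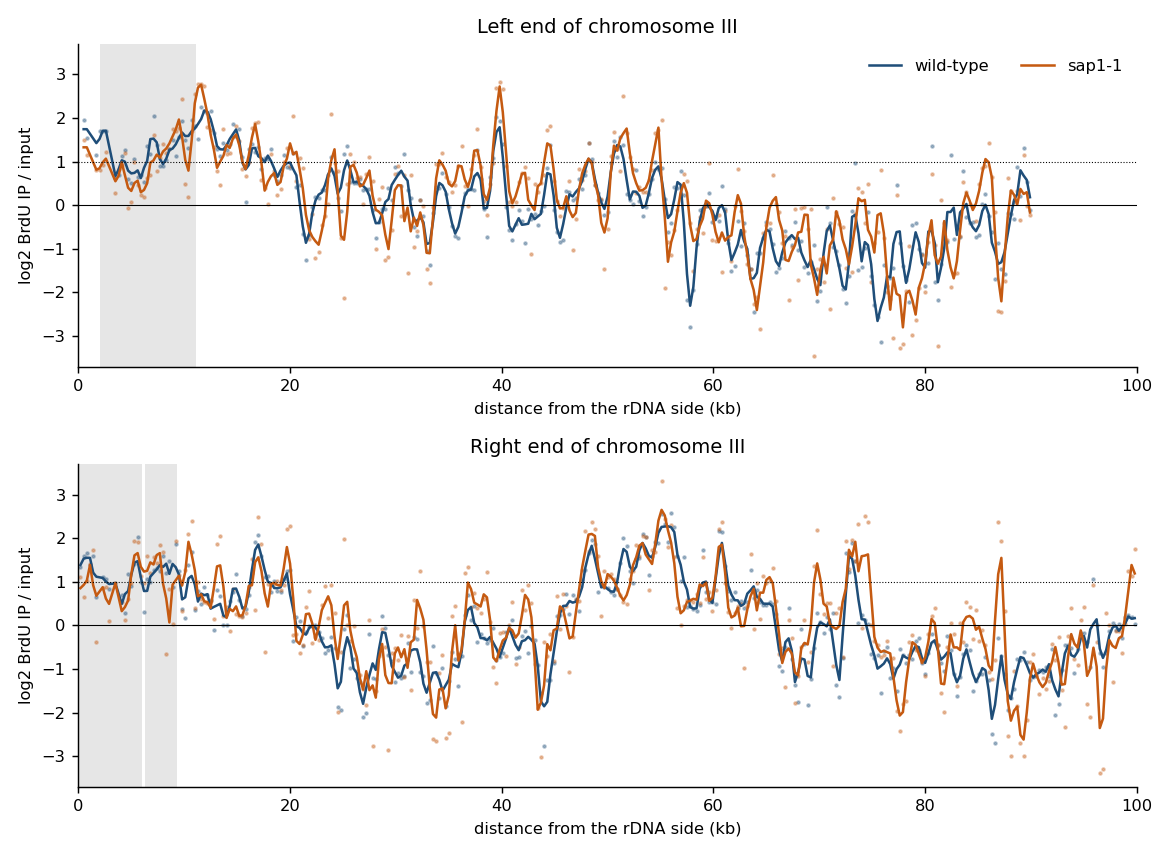
log2 BrdU ratio (y axis) of the tiles of each end against distance from the rDNA side in kb (x axis), with points for single tiles, lines for the mean within 500 bp either side, blue for wild-type and orange for sap1-1. Grey marks stretches within the outer 12 kb that are nearly the same on both ends, and the dotted line is the threshold of 1; BrdU is high next to the rDNA on both ends and again from 48.5 to 60.8 kb on the right, and both strains follow similar curves.

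Both strains followed much the same profile. Across the 625 tiles the correlation between strains was 0.72, and 0.80 after smoothing, a description over neighbouring tiles that share fragments and base composition. The sap1-1 profile was rougher: the SD of the difference between neighbouring tiles was 1.03 in sap1-1 and 0.65 in wild-type. The same roughness was present over all tiles, at 1.02 and 0.60.

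Seen by distance, BrdU was high next to the rDNA on both ends. In the first 10 kb the wild-type median was 1.16 on the left (28 tiles) and 1.18 on the right (30 tiles). In sap1-1 it was 0.95 and 1.01. At 10 to 20 kb the left end stayed at 1.32 in wild-type and 1.20 in sap1-1, and the right end had 0.78 and 0.84. Past 20 kb both ends dropped. The left end had wild-type medians between -0.05 and 0.37 from 20 to 60 kb, then -0.92 at 60 to 70 kb and its lowest value of -1.38 at 70 to 80 kb. The right end was down at -0.49 by 20 to 30 kb and -0.73 by 30 to 40 kb. It rose again to 1.48 at 50 to 60 kb, the highest bin of either end, before falling to -0.95 at 80 to 90 kb. The 2 ends were thus alike in the first 20 kb, both above 0.75, and then followed different courses.

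Bins high in wild-type were mostly lower in sap1-1 and the others mostly higher, although the difference itself contains the wild-type value. Of the 19 bins, 13 were higher in sap1-1 and 6 lower, from -0.34 in the first 10 kb on the left to 0.59 at 40 to 50 kb on the left. Of the 5 bins whose wild-type median was 0.75 or more, 4 were lower in sap1-1, and of the other 14, 12 were higher. The 4 bins at 1 or more in wild-type differed by between -0.34 and -0.01. At the chromosome I and II ends, 39 of 40 bins were at 1 or above in wild-type, and their differences ran from -1.79 to -0.19. The tallest bin of the right end, at 50 to 60 kb, differed by -0.01 (SD over its 34 tiles 0.54), with medians of 1.48 and 1.06. Of its 34 tiles, 18 were lower in sap1-1. With centring on the mode, 18 of the 19 bins were lower.

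**Figure D2:**
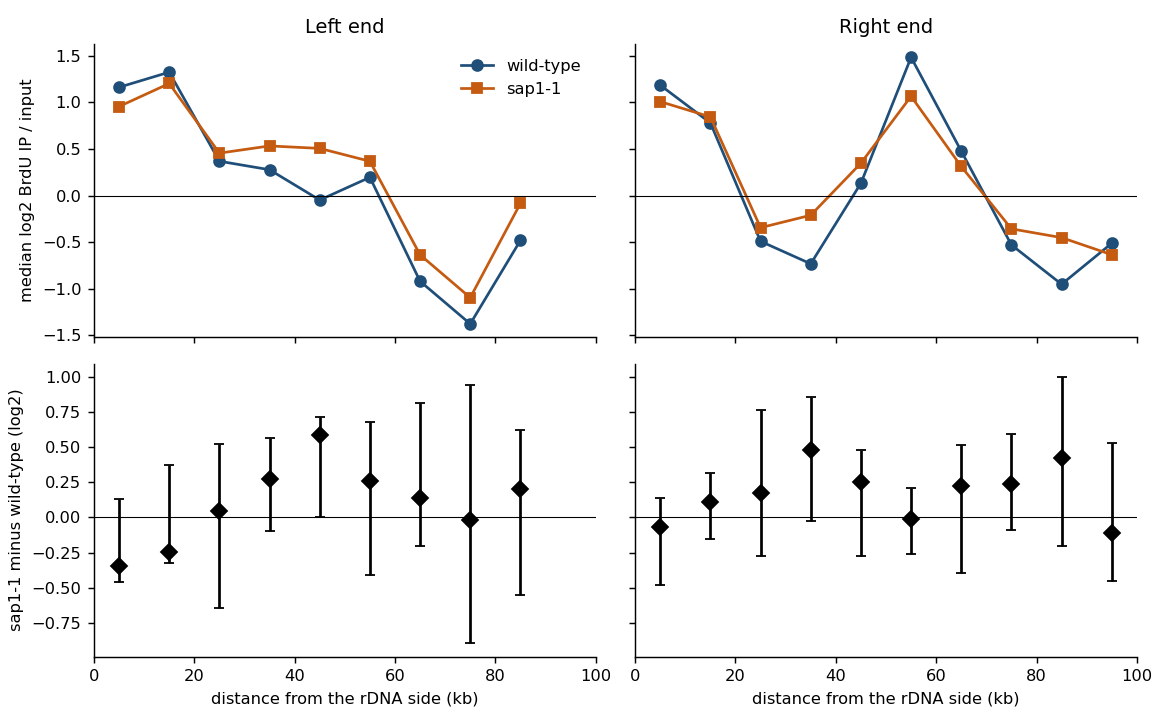
Upper panels, median log2 BrdU ratio per 10 kb bin against distance from the rDNA side (blue circles, wild-type; orange squares, sap1-1); lower panels, median of the tile differences, sap1-1 minus wild-type, with bars from the lower to the upper quartile over tiles. The curves of the strains lie close together, with medians of the difference between -0.34 and 0.59.

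**Figure D3:**
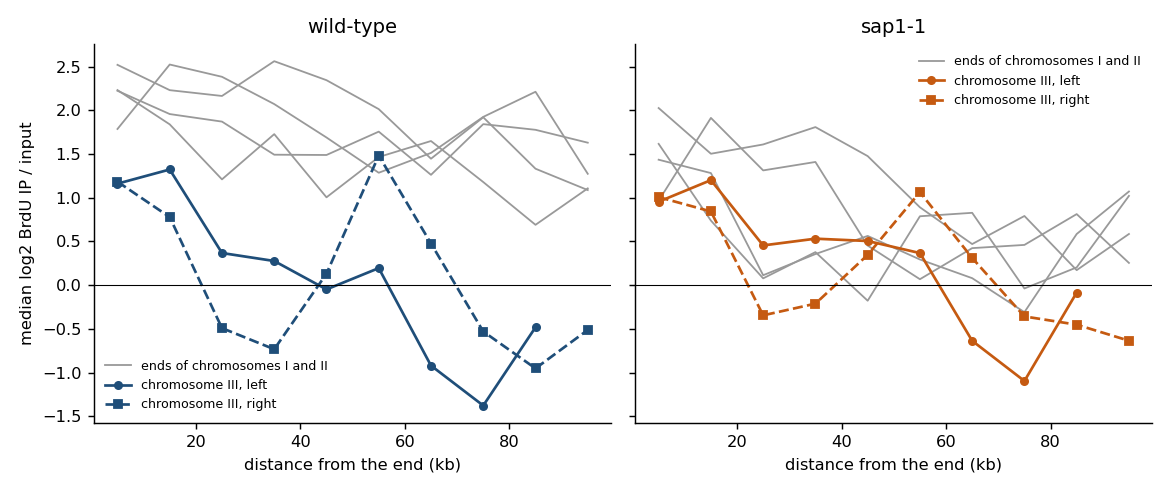
Median log2 BrdU ratio per 10 kb bin against distance from the end in kb for the ends of chromosome III (coloured, counted from the rDNA side) and the 4 ends of chromosomes I and II (grey, counted from the outermost tile). In wild-type the grey lines span 0.69 to 2.56 and the coloured ones -1.38 to 1.48, and these ranges overlap. In sap1-1 the grey lines span -0.31 to 2.03 and the coloured ones -1.10 to 1.20, a wider overlap.

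The bins of chromosome III and those of chromosomes I and II overlapped in range in both strains, and more widely in sap1-1. In wild-type the bins of chromosome III ran from -1.38 to 1.48 and those of chromosomes I and II from 0.69 to 2.56. In sap1-1 the ranges were -1.10 to 1.20 and -0.31 to 2.03, so that they came closer mainly through the lower values of chromosomes I and II.

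The outer bins of both ends are not independent measurements. In the reference, the left end from 2.01 to 8.05 kb and the right end from 0.00 to 6.02 kb match in inverted orientation over 6053 bp at 96.8% identity. A second match of 3097 bp at 92.7% follows at once (8.01 to 11.1 kb on the left, 6.28 to 9.35 kb on the right), and a last one of 844 bp at 98.9% lies at 17.2 to 18.1 kb on the left and 17.5 to 18.4 kb on the right. Tiles there may read DNA from both ends, and how much was not tested. In the longest match the left copy (18 tiles) had medians of 1.10 in wild-type and 0.80 in sap1-1, and 16 of its tiles were lower in sap1-1, with a median difference of -0.44. The right copy (17 tiles) had 1.12 and 0.97, with 11 tiles lower and a median difference of -0.17. In the second match both copies were a little higher in sap1-1, by 0.19 on the left and 0.11 on the right (10 tiles each). The annotated rRNA genes begin 1.87 kb beyond the left edge and 3.89 kb beyond the right edge. Just across the left edge the tiles at 24900, 24600 and 23400 had 1.87, 2.16 and 2.06 in wild-type, and the first tiles inside, at 25500, 25800 and 26700, had 1.95, 1.54 and 1.16. In sap1-1 the tiles outside had 1.34, 1.74 and 1.44, and the 3 inside differed from wild-type by -0.45, -0.39 and -0.34. On the right the nearest tiles outside had 1.23, 0.33 and 1.53 in wild-type, where the nearest inside had 1.33, 1.60 and 1.66. In sap1-1 those outside had 0.81, 0.54 and 1.58, and those inside had 1.10, 0.66 and 1.03. Signal at the outer edge thus ran on into the rDNA side on the left, and was uneven across the edge on the right.

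BrdU-enriched regions were called where the smoothed ratio was at 1 or above over at least 3 tiles, with regions under 1000 bp apart joined. The left end had 4 in wild-type and 5 in sap1-1, and the right end had 7 and 8. Together 9 of the 11 wild-type regions overlapped a sap1-1 region, and 9 of the 13 sap1-1 regions overlapped a wild-type one. They covered 34.2 kb of the ends in wild-type (114 tiles) and 32.4 kb in sap1-1 (108 tiles). Most were short, with a median length of 1.80 kb (wild-type) or 1.5 kb (sap1-1). No such count over the whole genome is given here, so whether these numbers and this overlap are usual for these 2 arrays cannot be told.

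The largest zone of the left end spanned new22, a short gene of unknown role, and SPCC1884.01, which encodes an uncharacterized protein. In wild-type it ran from 31500 to 42599 (11.1 kb), with its summit of 2.17 at tile 36900. In sap1-1 it ran from 32100 to 42299 (10.2 kb), with a summit of 2.76 at tile 36600. At tiles 36000, 36300, 36600 and 36900 wild-type had 1.82, 1.52, 2.25 and 2.16, and sap1-1 had 2.55, 2.78, 2.77 and 2.74. On the rDNA side, at 35100 and 35400, wild-type had 1.51 and 1.32, and sap1-1 had 0.49 and 0.19. On the other side, from 37200 to 38400, all 5 tiles were lower in sap1-1, by between -0.68 and -0.31. Over the 37 tiles of the wild-type zone these opposite differences left means of 1.45 and 1.44. On median centring the zone thus had nearly the same mean BrdU in both strains. Every difference falls with centring on the mode, from -0.28 to -0.83 at SPCC1884.01. The top of the zone was narrower in sap1-1. The input was low under this top, at -2.52 to -1.58 from 36000 to 36900 in wild-type. Without the tiles whose input lay 2 or more below the array median, the highest smoothed values in the zone were 2.14 in wild-type and 2.27 in sap1-1.

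**Figure D4:**
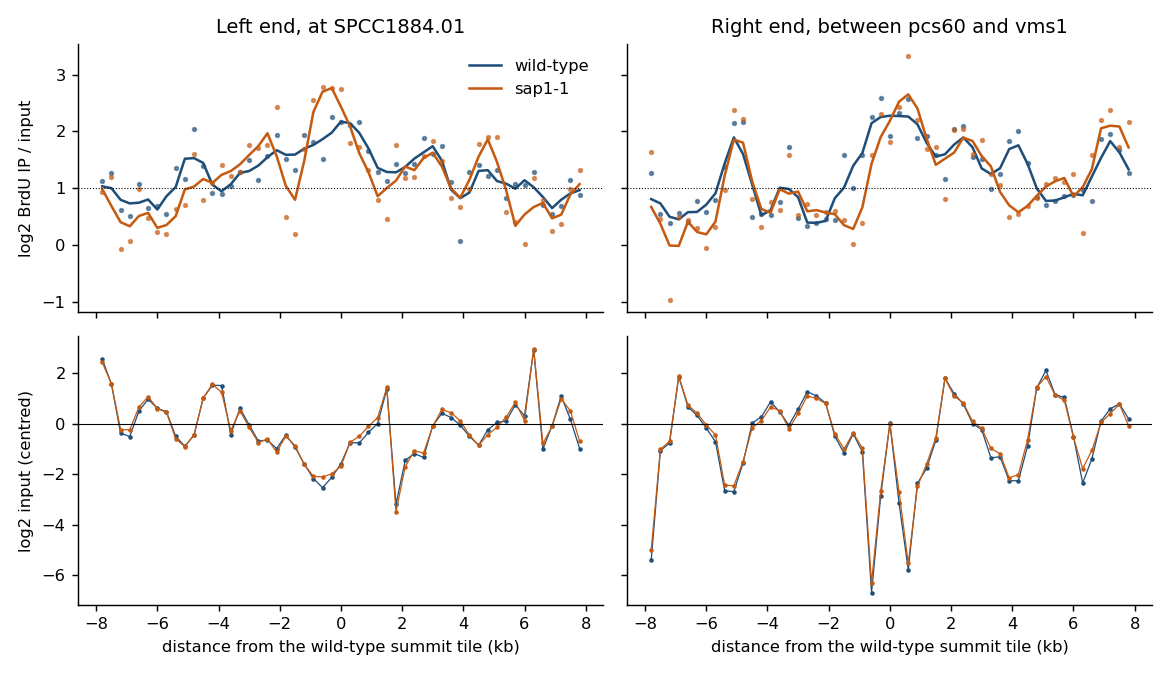
Upper panels, log2 BrdU ratio within 8 kb of the wild-type summit tile of the tallest zone of each end (points, single tiles; lines, mean within 500 bp either side; blue, wild-type; orange, sap1-1; dotted line at 1); lower panels, log2 input signal of the same tiles, centred on the array median. In sap1-1 the tops reach 2.76 and 2.65 and the flanks fall faster, and on the right the input falls to -6.68 beside the summit.

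The tallest zone of the right end lay between pcs60, annotated as an acetyl-CoA ligase gene, and vms1, whose budding yeast counterpart acts in the rescue of stalled ribosomes. In wild-type it ran from 2380800 to 2387099 (6.30 kb) with a summit of 2.28 at tile 2382300. In sap1-1 it ran from 2381700 to 2385899 (4.20 kb) with a summit of 2.65 at tile 2382900. The zone was shorter on both sides in sap1-1. At pcs60, tiles 2380800, 2381100 and 2381400 had 1.58, 1.01 and 1.59 in wild-type. In sap1-1 the same 3 tiles had 0.44, 0.01 and 0.39. On the other side, tiles 2386200, 2386500 and 2386800 differed by -1.33, -1.46 and -0.75, the first and second of them at low input. Along vms1 itself the strains lay close together on median centring, with a mean of 1.70 over 7 tiles in wild-type and 1.68 in sap1-1. The difference was -0.02 ± 0.08 (SE over tiles), and -0.57 with centring on the mode. The summit tile of sap1-1 has 19.0% GC, and its input lay at -5.78 in wild-type and -5.52 in sap1-1. Without low-input tiles the highest smoothed values in the zone were 1.92 and 1.89, so the taller top of sap1-1 rests on tiles of low input.

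Next along the right end, spx2, a gene for a protein with SPX and EXS domains, had a region with smoothed summits of 1.83 in wild-type and 2.10 in sap1-1, both at tile 2389500. Another, at pcy1, reached 1.89 and 1.85 at tile 2377200, and without its 2 low-input tiles 1.33 (wild-type) and 1.52 (sap1-1). Pcy1 is an enzyme of phosphatidylcholine synthesis. With the zone at vms1 these make up the broad rise of the right end, with wild-type summits 48.5, 55.7 and 60.8 kb from the edge. Farther in, the region at sac32, annotated as a nuclear export factor gene, was 0.900 kb long in wild-type with a summit of 1.60. In sap1-1 it was 2.10 kb long and reached toward nnk1, a protein kinase gene, with a summit of 1.92. Over the tiles of this longer region the mean of wild-type was 0.72 and that of sap1-1 was 1.70, but 3 of the 7 tiles were of low input. Without them the highest smoothed values were 1.68 and 1.74.

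Around rnc1, which encodes a KH-domain RNA-binding protein of the stress MAP kinase pathway, BrdU was higher in sap1-1. The summit lay at tile 64800 in both strains, at a smoothed 1.79 in wild-type and 2.73 in sap1-1. Tiles 64500, 64800 and 65100 had 2.02, 1.94 and 1.42 in wild-type, and for sap1-1 they had 2.69, 2.82 and 2.66. The input there was above the array median on both arrays, at 1.19 (wild-type) and 0.74 (sap1-1) in the summit tile. The region thus held no low-input tile, while its input was lower on the sap1-1 array. Over the 9 tiles of rnc1 the mean was 0.50 (wild-type) and 1.19 (sap1-1), a difference of 0.69 ± 0.12 (SE). Against the mean input of both arrays the difference was 0.40, and with centring on the mode it was 0.14.

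Regions called in wild-type alone lay at the very edge. At their summits the smoothed sap1-1 value was also above the threshold of 1. It was 1.33 on the left (1.75 in wild-type) and 1.03 on the right (1.55 in wild-type). A call also needs at least 3 tiles inside the end, so where the end is cut can decide it. On the left, tiles from 25500 to 27899 averaged 1.63 (wild-type) and 1.07 (sap1-1). On the right, tiles from 2435400 to 2438099, at SPCC569.01C, had 1.30 and 0.91. Both run on past the edge toward the rDNA, so their full length is not described here. The first lies partly and the second wholly in the sequence that both ends share, and every tile of the first is of repeated sequence. Regions met in sap1-1 alone were at nic1 and SPCC757.02C (summit 1.42 against 0.98 in wild-type), at SPCC757.13 (1.78 against 0.89), between SPCC569.07 and SPCC569.06 (1.80 against 1.20), and at SPCC569.05C (1.92 against 1.08). These summits were placed by the sap1-1 values, which favours sap1-1. Between SPCC569.07 and SPCC569.06 and at SPCC569.05C the wild-type value was itself above the threshold of 1. There the wild-type call failed on the rule of at least 3 tiles, not on summit height. At the other places the wild-type value was below the threshold. The region at SPCC569.05C held 2 low-input tiles, and without them reached 0.80 in sap1-1 and 0.57 in wild-type.

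Between the zones lay stretches with little BrdU, at a smoothed ratio of -1 or less over at least 3 tiles. They were from 0.9 to 6.9 kb long. Tiles at -1 or less numbered 113 (18.1%) in wild-type, against 20.9% of all tiles, and 103 (16.5%) in sap1-1, against 24.6%. The left end had 6 such stretches in wild-type and 5 in sap1-1, and the right end had 6 and 5. On the left, rng3, a myosin chaperone, and rpl35, a protein of the large ribosomal subunit, lay in a stretch in both strains, with lowest values of -1.69 and -2.40. On the right, apl4, a clathrin adaptor subunit, lay in one with -1.54 and -2.11, and adn3, a transcription factor gene, in one with -1.63 and -2.62. At these 3 places the lowest values were deeper in sap1-1, but at adn3 they came from different tiles. The sap1-1 low there, at tile 2348700, lay outside the wild-type stretch, which ended at 2348399. The tiles of that wild-type stretch averaged -1.20 (wild-type) and -1.01 (sap1-1). Those of the wild-type stretches at rpl35 and apl4 averaged -1.54 and -1.33 (wild-type), and -1.80 and -1.53 (sap1-1). The sap1-1 profile was also the rougher one, and how far this deepened its lowest values was not tested. Tiles of the wild-type stretches were chosen by low wild-type values, which favours higher values in sap1-1. At SPCC613.02 the 3 tiles of a wild-type stretch averaged -2.30 (wild-type) and -0.45 (sap1-1), and tile 83100 among them is of repeated sequence. Another, over inh1, put1 and SPCC70.04C, averaged -1.24 and -0.34 over its 20 tiles, and its members went different ways. The genes put1 and SPCC70.04C were higher in sap1-1, while inh1, with 2 tiles, had -1.81 in wild-type and was lower still in sap1-1, at -2.76.

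By gene, 67 protein-coding genes (pseudogenes included) of these ends had at least 3 tiles. Of these, 27 (40.3%) had a lower mean in sap1-1 and 40 a higher one, while 59.5% of the 4640 such genes of the genome were lower. Lower by at least 1 was 1 gene (1.49%; 8.92% of genes of the genome), and higher by at least 1 were 3 (4.48%; 2.95%). The median gene stood at -0.34 (wild-type) and 0.09 (sap1-1), against -0.15 and -0.24 over the genome.

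Genes that lost BrdU were spread over both ends. Among genes with at least 3 tiles, the only one past 1 was hsp3101, a DJ-1 family glyoxalase gene 23.0 kb from the left edge. Its 4 tiles had a mean of 0.27 in wild-type and -0.74 in sap1-1, and the difference was -1.01 ± 0.19 (SE over tiles), with every tile lower. SPCC613.01, annotated as a transporter, went from 0.12 to -0.72, and all 6 of its tiles were lower. The ribosomal gene rpl35 went from -1.55 to -2.40 (difference -0.85 ± 0.57 SE, with 2 of its 3 tiles lower). On the right, dhm1, an ankyrin-repeat gene, went from -1.02 to -1.65, and ecl1, an extender of chronological lifespan, from -0.71 to -1.35, with 3 tiles each, all lower.

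Among the genes that were higher in sap1-1, meu23 on the left, a gene named for its rise in meiosis, went from -1.29 to 0.09, a difference of 1.38 ± 0.41 over 3 tiles. Its neighbour qcr2, a core subunit of respiratory complex III, went from -1.64 to -0.72 (0.92 ± 0.15), with all 5 tiles higher. Nearer the rDNA, vph2, which is needed to assemble the vacuolar ATPase, went from 0.07 to 0.81 (0.74 ± 0.05) with all 4 tiles higher. On the right put1, the proline dehydrogenase gene, went from -1.36 to -0.16 (1.21 ± 0.30), and all of its 8 tiles were higher. Its neighbour SPCC70.04C went from -0.99 to -0.17. The splicing-complex gene cwf18 went from -0.70 to 0.44 (1.14 ± 0.44, 4 tiles). The purine synthesis gene ade5 went from -0.97 to -0.05 (0.92 ± 0.24), with 1 of its 6 tiles lower. Of these 7 genes, 6 had wild-type means from -1.64 to -0.70, where BrdU was scarce. They were picked by a difference that itself contains the wild-type value, and such a choice favours low wild-type means. With centring on the mode the differences were 0.83 at meu23, 0.66 at put1, 0.59 at cwf18 and -1.56 at hsp3101, so that the losses became the larger ones. The difference at qcr2 then was 0.37 and that at ade5 was 0.37, while of the 35 genes named by the rule 5 changed sign, nic1, SPCC757.13 and SPCC569.05C among them.

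The genes nearest to the rDNA were a little lower in sap1-1. On the left SPCP20C8.01C went from 0.82 to 0.68 and SPCP20C8.02C from 0.62 to 0.30. On the right SPCC569.01C went from 1.28 to 0.93 and SPCC569.02C from 0.49 to 0.33. The 4 encode uncharacterized proteins, and every tile of theirs lies in repeated sequence, so the left and right pairs may share signal.

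**Figure D5:**
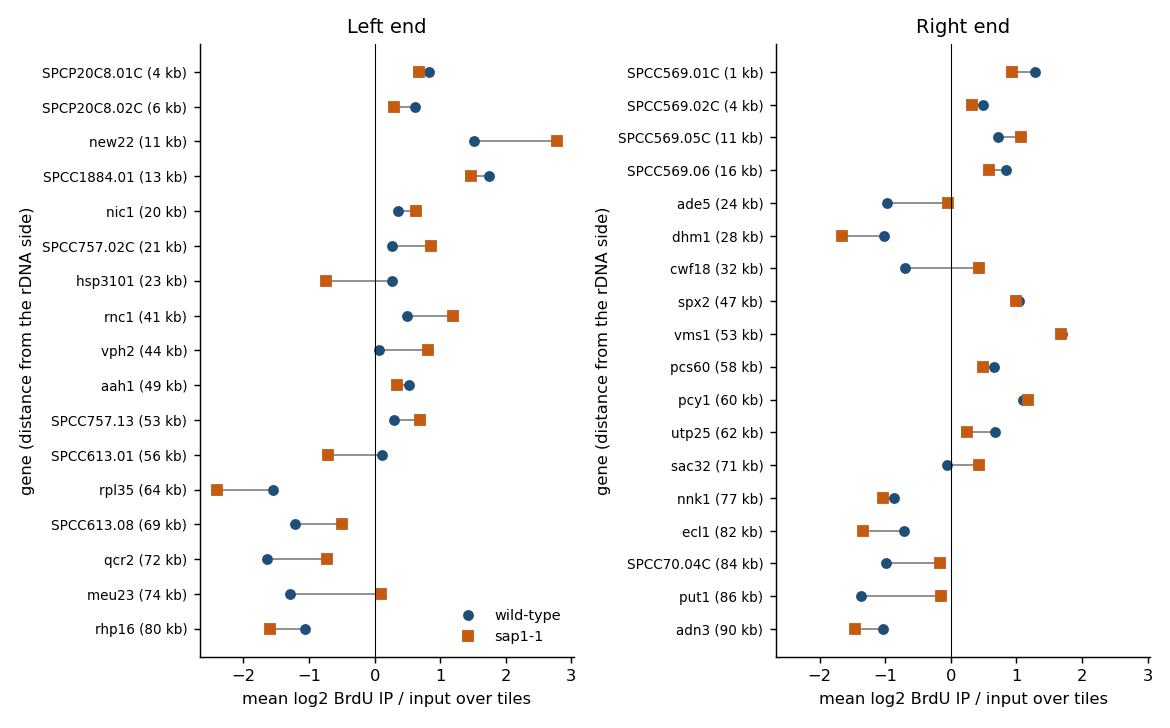
Mean log2 BrdU ratio over the tiles of each gene that the text's rule names, for wild-type (blue circles) and sap1-1 (orange squares), in order of distance from the rDNA side, given in kb beside the name. The widest gaps to the right are at meu23 (-1.29 to 0.09), new22 (1.52 to 2.78, 1 tile), put1 (-1.36 to -0.16) and cwf18 (-0.70 to 0.44). The widest to the left is at hsp3101 (0.27 to -0.74).

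Annotated gene classes were counted with all their members. None of the 25 wtf genes, the spore-killer family that is concentrated on chromosome III, lay in these ends. Genes annotated as transporters or permeases numbered 5 on the left and 1 on the right. Of these 6, 5 were higher in sap1-1 by between 0.28 and 0.54, and SPCC613.01 was lower. Over the 190 genes of this class the median difference was 0.00, with 95 (50%) lower. The highest in BrdU was SPCC569.05C, of the spermidine transporter family, at 0.72 in wild-type and 1.07 in sap1-1 (14 tiles). Over the tiles within 1000 bp, the histidine tRNA gene of the left end had -0.01 (wild-type) and -0.02 (sap1-1), and the glycine tRNA gene had 0.32 and 0.30. The tRNA genes of the whole genome had medians of 1.69 and 1.71, so these 2 stood lower, and no tRNA gene was annotated in the right end.

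LTRs, the remnants of Tf retrotransposons that Sap1 is known to bind, numbered 7 on the left, 6 of them with tiles, and 6 on the right. Within 1000 bp of them the left end had a median of 0.81 in wild-type and 0.42 in sap1-1, and 5 of 6 were lower in sap1-1. The right end had 0.74 and 0.66, and 3 of 6 were lower. Over the genome 166 of 237 (70.0%) were lower, with a median difference of -0.22, against -0.31 on the left and 0.11 on the right. None of the 12 differed by 1 or more, while over the genome 30 of 237 (12.7%) were lower by at least 1 and 1 (0.422%) was higher by at least 1. The LTR next to the left edge had the largest loss, from 1.61 to 1.04 over 5 tiles, and its tiles are all of repeated sequence. The one in the zone between pcs60 and vms1 had the highest level, 1.98 in wild-type and 1.54 in sap1-1. Leaving out every tile within 1000 bp of an LTR gave median differences of 0.20 on the left and 0.17 on the right.

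Long non-coding RNA genes numbered 50 on the left and 64 on the right, of which 49 and 61 had tiles. On the left 23 were lower in sap1-1, 3 by at least 1, and 6 were higher by at least 1. On the right 23 were lower, 4 by at least 1, and 7 were higher by at least 1. Of the 6795 such genes of the genome with tiles, 57.8% were lower, 13.4% by at least 1, and 7.12% were higher by at least 1. Their median differences were 0.01 and 0.17, against -0.13 over the genome.

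BrdU lay between genes more than in them, as base composition did. On the left, tiles in protein-coding genes had a wild-type median of -0.20 (191 tiles, 37.0% GC) and those between genes 0.80 (104 tiles, 31.7% GC). In sap1-1 these were -0.01 and 0.79. On the right the medians were -0.16 and 0.40 (wild-type; 241 and 89 tiles), and 0.13 and 0.47 for sap1-1. From the quartile of tiles lowest in GC to the highest, the wild-type median fell through 0.84, 0.17, -0.20 and -0.58, and that of sap1-1 through 0.91, 0.50, -0.05 and -0.45. The difference between strains was nearly even over these quartiles, at 0.08, 0.18, 0.16 and 0.14. Across tiles the ratio correlated with GC at -0.44 (wild-type) and -0.39 (sap1-1), as a description. The input of the ends differed little between arrays, by a median of 0.02, and no tile was short of being well above background, although 53 of the 625 had an input 2 or more below the median on either array.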

How the data were processed

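Both arrays were 2-colour Agilent tiling arrays (42968 spots, 41551 not controls). Spots were read with Agilent Feature Extraction 10.7.3.1, per the file headers. It made the deposited processed signals, which are background-corrected, dye-scaled intensity values, and the deposited log10 ratio, which equalled processed Cy5 over Cy3 to within 3.91e-07. The deposited median spot and background signals, raw intensity values per the file headers, served an alternative only; it was planned on mean signals, but was run on medians. Ratios were turned to log2 and centred on each array's median, with no loess or quantile step. A value depends on that centre, so the comparison with chromosomes I and II is also given. Smoothing was the mean within 500 bp either side. A tile is of repeated sequence where at least 10% of its 30-base words recur in the reference.

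Genes were named by a rule: those at or beside the 5 highest summits per end and strain, the 4 most lowered and 4 most raised of genes with at least 3 tiles per end, the 2 nearest the rDNA, and annotated lists. new22 and SPCC569.02C come from the summit and nearest-gene parts of this rule and have under 3 tiles. The genes rng3, apl4, inh1, SPCC613.02 and SPCC569.07 were named for where a stretch or region lay, after their values were seen. Members and lists were chosen with earlier results of these data known. limma 3.58.1 (R 4.3.3) ran normexp, with an offset of 50, and loess, and Python 3.11.15 the rest. The region search was tested on simulated regions longer than the median length here, with independent scatter between tiles. That test does not cover the shorter regions. Array number, 1 per strain, limits the precision, and no p-value was computed. The result for 1 stretch of the left end is not reported here.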

Additional observations from a re-analysis of the deposited data

How the results depend on the processing

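No paired analysis was possible because each strain has 1 array. With centring on the mode (-0.46 from the median in wild-type, 0.09 in sap1-1) the median difference was -0.43 on the left and -0.40 on the right, 18 bins were lower, and wild-type regions numbered 8 on the left and 4 on the right. Quantile scaling gave 0.23 on the right. Against the ends of chromosomes I and II, loess gave 0.78 and 0.81, and leaving out repeated sequence 1.20 and 1.19; over all 13 alternatives both stayed positive (0.78 to 1.20 on the left, 0.81 to 1.19 on the right). With other calling rules, region counts changed. At a threshold of 1.5 there were 3 in sap1-1 on the left, and on the right 4 (wild-type) and 3 (sap1-1). At 0.5 there were 8 and 9 on the left and 4 in wild-type on the right. Smoothing over 1000 bp either side left 2 and 3 on the left. Runs of at least 5 tiles left 2 and 3 on the left and 4 in sap1-1 on the right. A GC correction, and the omission of low-input tiles, chosen after seeing the data, each left 5 in sap1-1 on the right. The cause of these changes was not tested, beyond stricter or looser calls by construction. The other 87 values for the ends stayed within 1.5 times for a count, or within the 95% order-statistic interval of the median over tiles (for example 0.21 on the left with quantile scaling). Of 35 named genes, 5 changed sign with the mode, 1 with loess and 1 with the mean input of both arrays. Tiles of low input and of shared sequence limit the tallest tops and the outer 12 kb.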
